A study of Mus musculus with 44 samples.

Results

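Molecular chaperone and heat shock genes were followed through mouse germ cell development on 44 Illumina MouseRef-8 v2 beadchips. Members were chosen by name: a symbol that starts with Hspa, Hspb, Hspd, Hspe, Hsph, Hsp90, Dnaja, Dnajb or Dnajc, or with Cct and a digit. The array held 100 probes of 73 such genes, and 62 genes were detected (detection p under 0.01) on at least 2 arrays, out of 10935 genes tested. The remaining 11 (Cct8l1, Dnajb5, Dnajb7, Dnajc1, Dnajc14, Dnajc9, Hspa12a, Hspa13, Hspa14, Hspb2 and Hspb3) did not pass that filter. Hsp90ab1, Hspa1b and Hspb9 were not analysed here. The name rule also took in Hspbp1 and Hspbap1, which bind HSP70 and HSPB1 and are not chaperones themselves.

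The cells were sorted by FACS as primordial germ cells (PGC), which give rise to oocytes or sperm. Juvenile male cells came 8, 10, 12, 14, 16, 18 and 20 days post partum (P8 to P20), and the labels call them PGC as well. Female and male fetal PGC came from every day between E12.5 and E18.5, E11.5 PGC had no stated sex, and the reference line was OG2, a male embryonic stem cell (ESC) line with the genotype +/+ Oct4-GFP. Each of the 23 groups had 2 arrays, except P14 and ESC with 1. The labels give no genotype, strain or treatment for the PGC, and do not say how many animals were pooled. The series text calls the duplicates biological while its protocol allows technical ones, so p-values measure only the spread between these samples.

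Among 5 germ cell markers (Ddx4, Dazl, Mael, Dppa3 and Tex101) the summed intensity was 3810 to 16100 on the embryonic PGC arrays, against 1270 on the ESC array, where Ddx4, Mael and Tex101 were not detected. Mael was not detected at E11.5, at E12.5-E13.5 in either sex, at P8-P10 or at P18-P20 either, nor was Tex101 at E11.5. The sum was 5990 to 7950 at P8-P10 and 6770 to 7870 at P18-P20. The upper quartile of raw intensity was 295.5 to 605.5 on the postnatal arrays, 79.9 to 170.2 on the embryonic PGC arrays and 323.6 on the ESC array. Brightness therefore cannot be told apart from age in any postnatal against fetal comparison. The pairs at E16.5 female and E11.5 stood apart, with a standard deviation between duplicates of 0.667 and 0.552 log2 units, against 0.123 to 0.427 in the other pairs. Values below are background-corrected, quantile-normalized log2 intensities. A probe's level was never set against another probe's, apart from the way a difference between 2 probes changed, and the lowest detected signal was 4.92 to 7.21 depending on the array. A gene was called when it differed at least 2-fold with an adjusted p under 0.05 over all genes (limma).

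Chaperones bind unfolded proteins and use cycles of ATP hydrolysis to help them fold. HSP70 proteins are recruited to clients by J-domain proteins (the Dnaja, Dnajb and Dnajc genes), HSP90 proteins finish the folding of kinases and hormone receptors, and the ring-shaped chaperonins enclose clients in a chamber: CCT in the cytosol, and HSPD1 with its lid HSPE1 in the mitochondrion. Heat shock factor 1 induces many of these genes through repeats of the triplet GAA in alternating orientation. Male germ cells are known for testis-specific members, of which HSPA2 is needed for spermatocytes to complete meiosis in mice.

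Promoter windows, from 250 bases before to 50 after a gene's start in RefSeq (GRCm38.p6), are shown for the neighbouring gene pairs Hspd1 with Hspe1 and Hspa1a with Hspa1l, on which results below turn. Capitals mark GAANNTTC or TTCNNGAA, each of which reads the same on both strands, with overlapping matches joined into 1 run.
Hspe1 (chr1:55087898-55088197, plus strand): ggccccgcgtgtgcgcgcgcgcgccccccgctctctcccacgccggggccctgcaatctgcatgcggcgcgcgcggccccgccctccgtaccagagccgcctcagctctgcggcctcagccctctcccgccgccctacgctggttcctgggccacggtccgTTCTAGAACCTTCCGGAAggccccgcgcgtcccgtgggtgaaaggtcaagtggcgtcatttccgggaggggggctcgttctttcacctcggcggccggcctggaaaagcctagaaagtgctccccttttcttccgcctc
Hspa1a (chr17:34972107-34972406, minus strand): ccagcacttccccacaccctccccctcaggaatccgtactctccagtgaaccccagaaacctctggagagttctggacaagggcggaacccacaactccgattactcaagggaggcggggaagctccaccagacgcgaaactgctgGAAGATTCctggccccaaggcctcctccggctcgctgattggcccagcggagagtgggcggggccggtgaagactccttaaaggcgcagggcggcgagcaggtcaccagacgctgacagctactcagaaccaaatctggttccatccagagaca
Hspa1l (chr17:34972453-34972752, plus strand): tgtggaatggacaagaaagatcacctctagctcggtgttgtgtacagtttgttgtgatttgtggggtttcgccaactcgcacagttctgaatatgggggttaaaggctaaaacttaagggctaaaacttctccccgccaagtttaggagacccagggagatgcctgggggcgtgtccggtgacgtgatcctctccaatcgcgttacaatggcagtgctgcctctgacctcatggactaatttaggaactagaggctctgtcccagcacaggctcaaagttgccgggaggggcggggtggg
Hspd1 and Hspe1 lie head to head. RefSeq gives Hspd1 2 start windows on the minus strand, at chr1:55087883-55088182 and chr1:55088194-55088493, and the first shares 285 bases with the Hspe1 window, including the capitals. In that run the triplets alternate at least 3 times in a row at the same spacing. Such a row of 3 was present on either strand in 198 of 32851 promoter windows of the RefSeq table (0.603%) and in 6 of the 66 windows (9.09%) that matched 51 of the tested members, belonging to Dnajb6, Hspd1, Hspe1 and Hsph1. By gene these were 4 of 51, and Hspd1 and Hspe1 share the same run, so windows are not independent counts. The second Hspd1 window held no match. The short motifs were in 15.1% of all windows and in 28.8% of the members' windows. A match describes letters only. The Hspa1l window held none of them, and neither did that of Hspa2. The Hspa1a window was identical to that of Hspa1b at 296 of 300 bases, and the signal of these near-identical genes at the Hspa1a probe cannot be told apart.

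Hspd1 and Hspe1, the barrel and the lid of the mitochondrial chaperonin, share a promoter region and differed in opposite directions between the sexes. At E17.5 and E18.5 the Hspd1 probe read 11.64, 11.83, 11.66 and 11.79 in females, against 9.73, 9.91, 10.17 and 10.42 in males. The Hspe1 probe read 8.42, 8.51, 8.70 and 8.93 in females, against 9.95, 10.13, 9.69 and 10.12 in males. Neither pair of groups overlapped. Hspd1 was higher in females by 1.67 ± 0.15 log2 units (SE, adjusted p = 2.47e-10), and Hspe1 was lower by -1.34 ± 0.17 (adjusted p = 1.27e-07). At E14.5 and E15.5 the differences were 1.03 ± 0.15 for Hspd1 (adjusted p = 1.36e-06) and -1.45 ± 0.17 for Hspe1 (adjusted p = 4.05e-08). Without E14.5 male replicate 1 or E15.5 male replicate 1 the earlier Hspd1 difference was 0.88 and 0.89, under 2-fold. In the E12.5-E13.5 window neither gene was called, at -0.13 ± 0.15 for Hspd1 and -0.54 ± 0.17 for Hspe1.

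The 2 genes also differed in how they changed with age. In males Hspd1 fell between E12.5-E13.5 and E17.5-E18.5 by 1.67 log2 units (SE 0.15, adjusted p = 3.67e-10), with late values under every early value of 11.46 to 12.01, while Hspe1 differed by -0.01 ± 0.17 (adjusted p = 0.98). In females neither was called over the same days, at 0.14 ± 0.15 for Hspd1 and -0.80 ± 0.17 for Hspe1, the second under 2-fold with an adjusted p of 0.000318. The female minus male difference of those changes was 1.81 ± 0.21 for Hspd1 (adjusted p = 5.97e-08). For Hspe1 it was -0.79 ± 0.24, short of 2-fold. Female Hspe1 was lowest at E15.5, at 7.86 and 8.02, while both E12.5 arrays read 9.55 and 9.53. The Hspd1 minus Hspe1 difference, a pair chosen after its values were seen and given without a test, was 3.09 ± 0.22 in late females and 0.08 ± 0.36 in late males (SD, n = 4 each). At E12.5 and E13.5 it had been 2.15 ± 0.06 in females and 1.74 ± 0.19 in males.

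**Figure D1:**
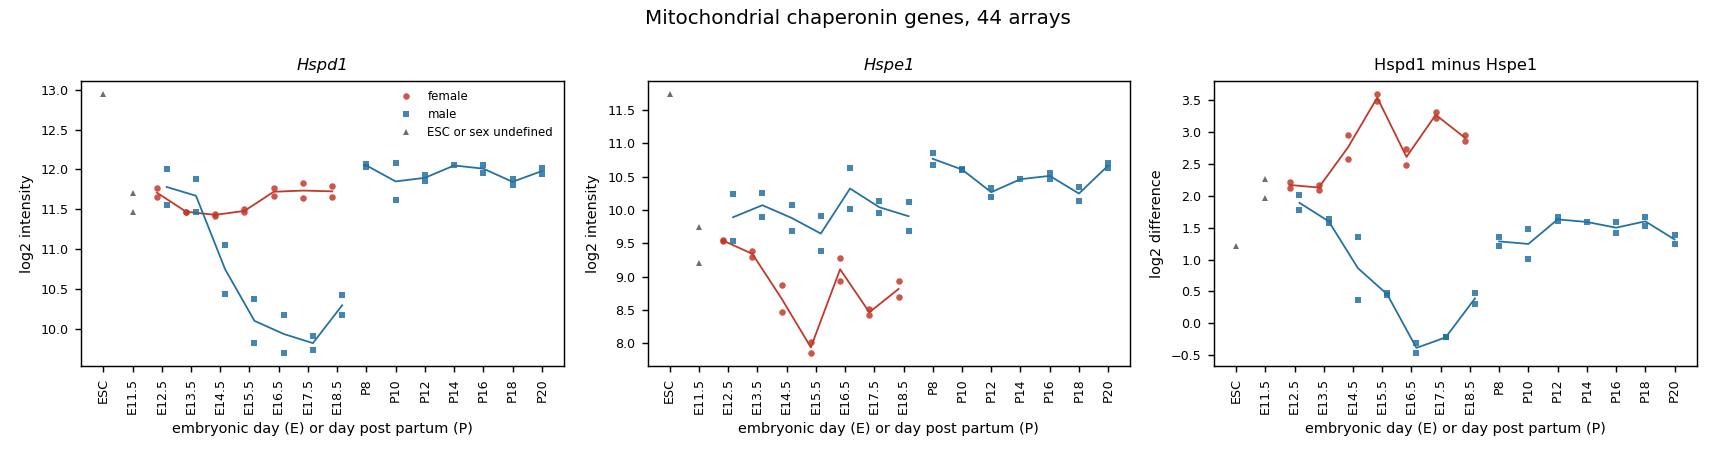
Log2 intensity of Hspd1 and Hspe1 and their difference (vertical axes) on all 44 arrays by stage (horizontal axis), with a point per array and lines through the group means. Male Hspd1 reads 9.73 to 10.42 at E17.5 and E18.5 while female Hspd1 reads 11.64 to 11.83, and Hspe1 is lower in females on those days.

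A second Hspd1 probe, detected on all 44 arrays, showed the same sex difference. It read 10.90, 10.88, 11.42 and 11.29 in late females, against 8.35, 8.50, 8.80 and 8.93 in late males, a difference of 2.48 (adjusted p = 3.11e-13), and it fell by 2.13 in males over time. The probes parted after birth. The brighter probe was higher at P8 and P10 than in late fetal males by 1.89 ± 0.15 (adjusted p = 3.79e-11), whereas the second differed by -0.19 (adjusted p = 0.291). A postnatal rise of Hspd1 therefore depends on the probe. Both chaperonin genes were lower in embryonic PGC than in ESC, Hspd1 by -1.81 ± 0.21 and Hspe1 by -2.33 ± 0.24.

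Across the family, sex differences were called at a rate near that of the whole array. At E12.5-E13.5, 3 of 62 members were higher and 5 lower in females than in males, where 12.7% of all genes were called (7.06% higher and 5.67% lower). At E14.5-E15.5 the counts were 15 and 11, where 34.8% of all genes were called (16.9% higher and 17.9% lower). At E17.5-E18.5 they were 14 and 8, where 42.5% were called (20% higher and 22.5% lower). Day by day the called members numbered 4 at E12.5 (8.83% of all genes), 10 at E13.5 (20%), 23 at E14.5 (32.2%), 31 at E15.5 (40.2%), 29 at E16.5 (44.6%), 25 at E17.5 (44%) and 19 at E18.5 (43.3%). The members' median difference was -0.06, 0.08 and 0.05 in those 3 windows, beside -0.0005, -0.03 and -0.02 over all genes. With arrays scaled to a common median in place of quantiles, the E14.5-E15.5 split became 8 higher and 13 lower. The members called in every alternative run were 4 of 8, 14 of 26 and 11 of 22 in the 3 windows. Leaving out the background correction alone left as many.

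**Figure D2:**
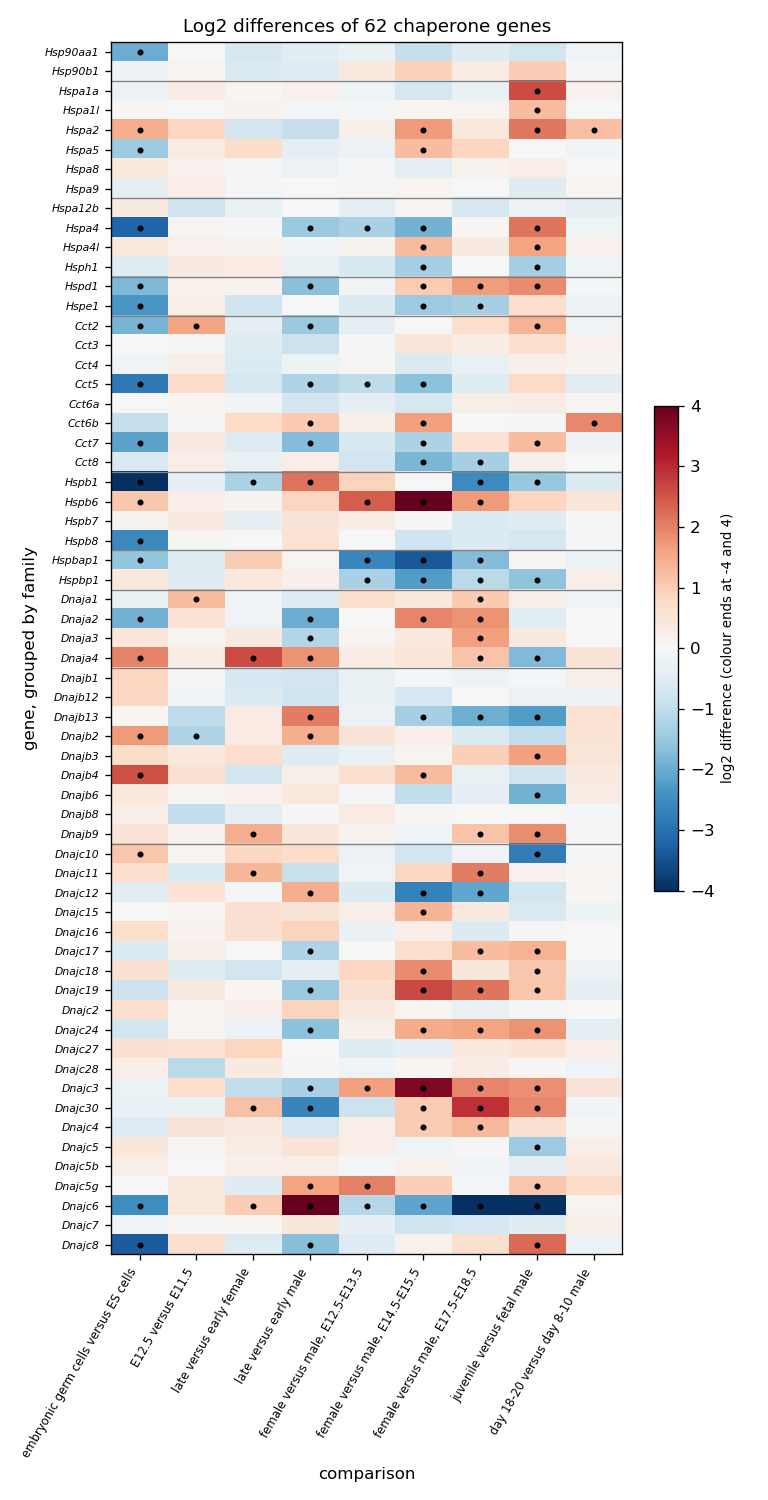
Log2 difference (colour, ending at -4 and 4) of the 62 tested members (rows, grouped by family) in 9 comparisons (columns). Each is the group named before "versus" minus the group after it, and black dots mark called genes. Called genes of both signs stand within most families.

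Small heat shock proteins hold unfolded proteins in solution without using ATP, and 2 of them diverged by sex in opposite ways. At E14.5-E15.5 Hspb6 (HSP20) read 8.92, 9.13, 9.21 and 9.27 in females, against 5.31, 5.41, 4.50 and 4.51 in males. It was detected on none of those 4 male arrays, so the difference is at least 13.5-fold (adjusted p = 3.04e-20). The female excess was 2.43 ± 0.11 log2 units at E12.5-E13.5 (adjusted p = 4.95e-15) and 1.70 ± 0.11 at E17.5-E18.5 (adjusted p = 2.62e-13). By day it was 1.80 at E12.5, 4.74 at E15.5 and 0.63 at E18.5. After birth Hspb6 read 7.23 to 8.14 on all juvenile male arrays, above every fetal male array (4.50 to 7.13). At E14.5-E15.5, 3 of 4 granulosa markers were higher in females, with summed intensities of 353 to 612 against 82.3 to 156 in males. Of 9 Sertoli markers 2 were lower there (799 to 3290 in females against 1890 to 4110 in males), and Sox9, Amh, Dhh, Cst9 and Ctsl were detected on no female array. Of 6 mesenchymal markers 2 were higher and 1 lower in females (224 to 981 against 141 to 411 in males), and of 5 germ cell markers 1 was higher and 3 were lower (5460 to 8310 against 5010 to 14200). The part of these cells in the Hspb6 difference was not tested.

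Hspb1 (HSP25 in the mouse) went the other way. It read 6.19, 4.92, 4.65 and 4.50 in late females, against 7.55, 7.31, 7.68 and 7.94 in late males. The groups did not overlap, and the difference was -2.56 ± 0.39 (adjusted p = 2.36e-06). In males it rose by 2.18 ± 0.39 over E12.5-E13.5 (adjusted p = 2.59e-05). In females it was lower late than early by -1.28 ± 0.39 (adjusted p = 0.00871), a call that ended without E17.5 female replicate 2 (-0.96). The difference of these changes was -3.46 ± 0.55 (adjusted p = 6.9e-06). Markers of other cells moved with it. From early to late males, 4 of 4 tested granulosa markers rose, with summed intensities of 495 to 1250 late against 133 to 215 early. Of 5 endothelial markers 3 rose and 1 fell (2200 to 2780 late against 535 to 1160 early), and 3 of 6 mesenchymal ones rose (1060 to 1200 late against 93.8 to 223 early). Among Sertoli markers 1 of 9 rose and 1 fell (2300 to 4400 late against 4250 to 7480 early). On the late male arrays Kdr, an endothelial marker, was the only one of these lists that was never detected. In late females against late males, 5 of 9 Sertoli, 4 of 4 granulosa, 4 of 5 endothelial and 2 of 6 mesenchymal markers were lower, with sums of 287 to 389 against 2300 to 4400 for the Sertoli markers. The germ cell marker sum was 8630 to 14700 in late females and 3810 to 6220 in late males, against 12600 to 16100 in early males. Fst, Wnt4, Esam, Egfl7 and Kdr were detected on no late female array, nor were 7 of the Sertoli markers. The part of such cells in the late male values was not tested. Fewer cells of a type and less RNA per cell cannot be told apart in these bulk samples.

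The binding partners followed neither chaperone exactly. Hspbap1, which encodes a protein that binds HSPB1, read 7.77, 7.55, 7.30 and 7.36 in females at E14.5-E15.5, against 10.94, 11.02, 10.73 and 10.82 in males. Its difference was -3.38 ± 0.14 (adjusted p = 1.21e-16), with -2.61 ± 0.14 at E12.5-E13.5 (adjusted p = 1.87e-13) and -1.74 ± 0.14 at E17.5-E18.5 (adjusted p = 2.43e-11). Hspbp1, a nucleotide exchange factor that releases ADP from HSP70, was also lower in females in the 3 windows, by -1.29 ± 0.14, -2.25 ± 0.14 and -1.07 ± 0.14. The last of these was under 2-fold without background correction (-0.92) and with median scaling (-0.79). Hspb8 and Hspb7 were detected on 7 and 2 arrays and were called in none of the 3 sex windows. Day by day, Hspb8 was lower in females at E14.5 (-1.34) and E17.5 (-1.23).

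**Figure D3:**
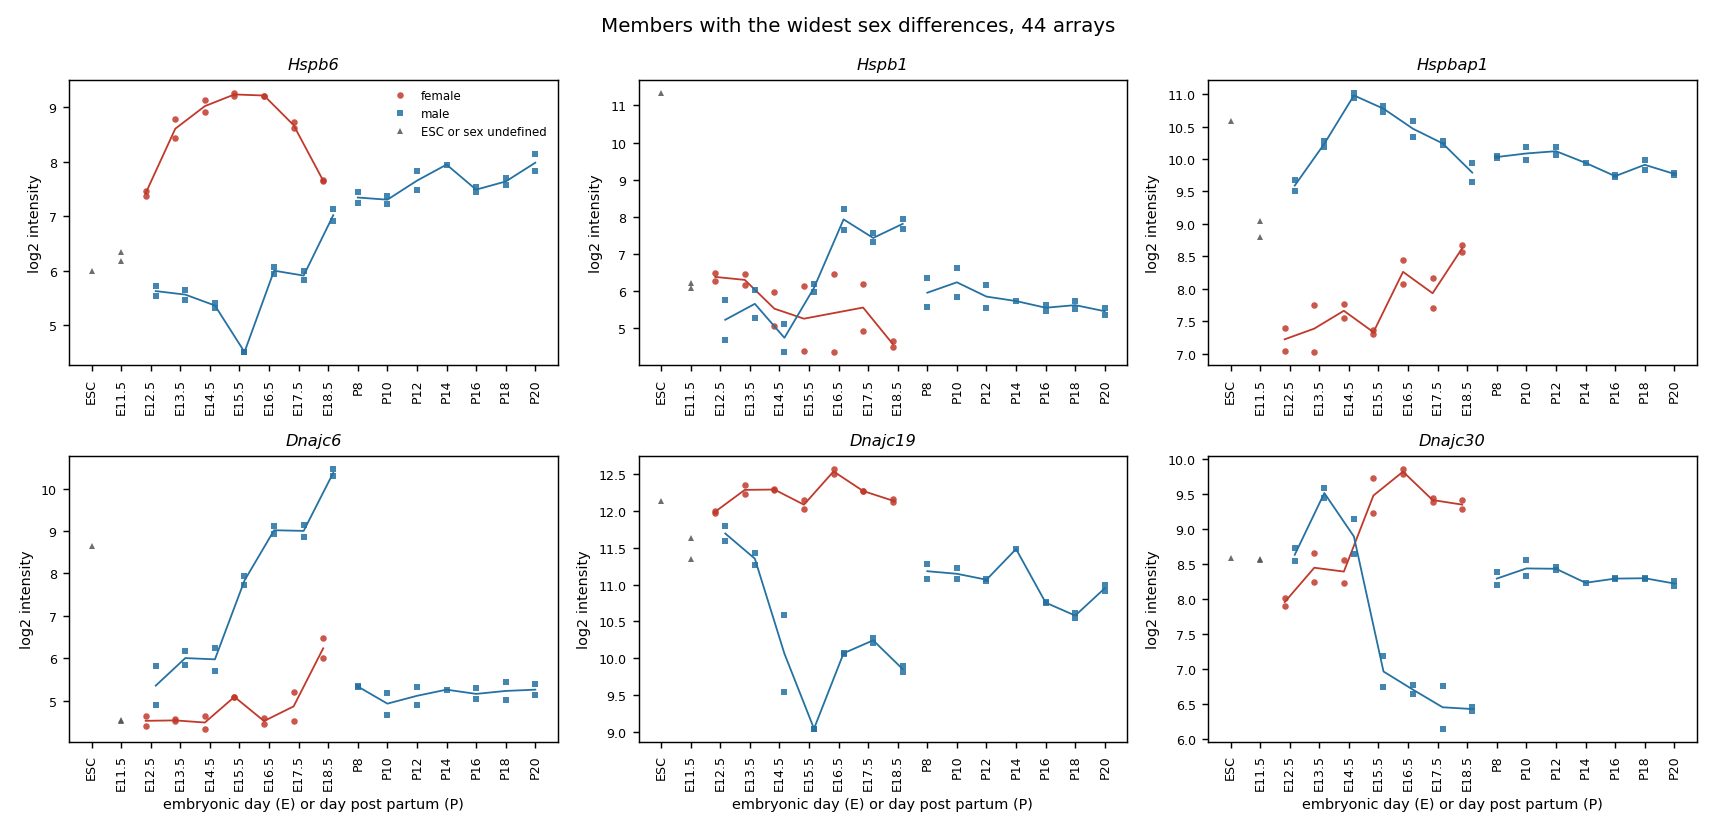
Log2 intensity (vertical axes) by stage (horizontal axis) of 6 members with wide sex differences, a point per array with lines through group means. Hspb6, Dnajc19 and Dnajc30 are higher in females late in gestation, and Hspb1, Hspbap1 and Dnajc6 are lower.

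The cytosolic chaperonin CCT folds actin and tubulin in a ring of 8 different subunits, and its genes did not move as one. Tcp1, also a subunit gene, lies outside the name rule, and its group means ranged from 11.82 to 13.19. Cct8 was lower in females, at 10.72, 11.10, 10.63 and 10.61 at E14.5-E15.5 against 12.00, 12.87, 12.48 and 12.99 in males. The groups did not overlap, and the difference was -1.82 ± 0.19 (adjusted p = 3.83e-09), with -1.33 ± 0.19 at E17.5-E18.5 (adjusted p = 6.24e-07). Cct5 was lower as well at E14.5-E15.5 (-1.64 ± 0.28, adjusted p = 1.51e-05), as was Cct7 (-1.26 ± 0.26, adjusted p = 0.000148), whose groups overlapped and whose difference without E15.5 female replicate 1 was -0.97. Without background correction the Cct5 difference at E14.5-E15.5 was -0.91. At E12.5-E13.5 Cct5 was also called lower in females (-1.02), a call that ended without that correction. Cct3, Cct4 and Cct6a were called in none of the 10 comparisons, with ranges of 11.49 to 12.94, 11.51 to 12.59 and 11.59 to 13.25 over all arrays. With median scaling all 3 were lower in embryonic PGC than in ESC, at -1.85, -2.16 and -1.95, where the median of all genes was -0.602.

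**Figure D4:**
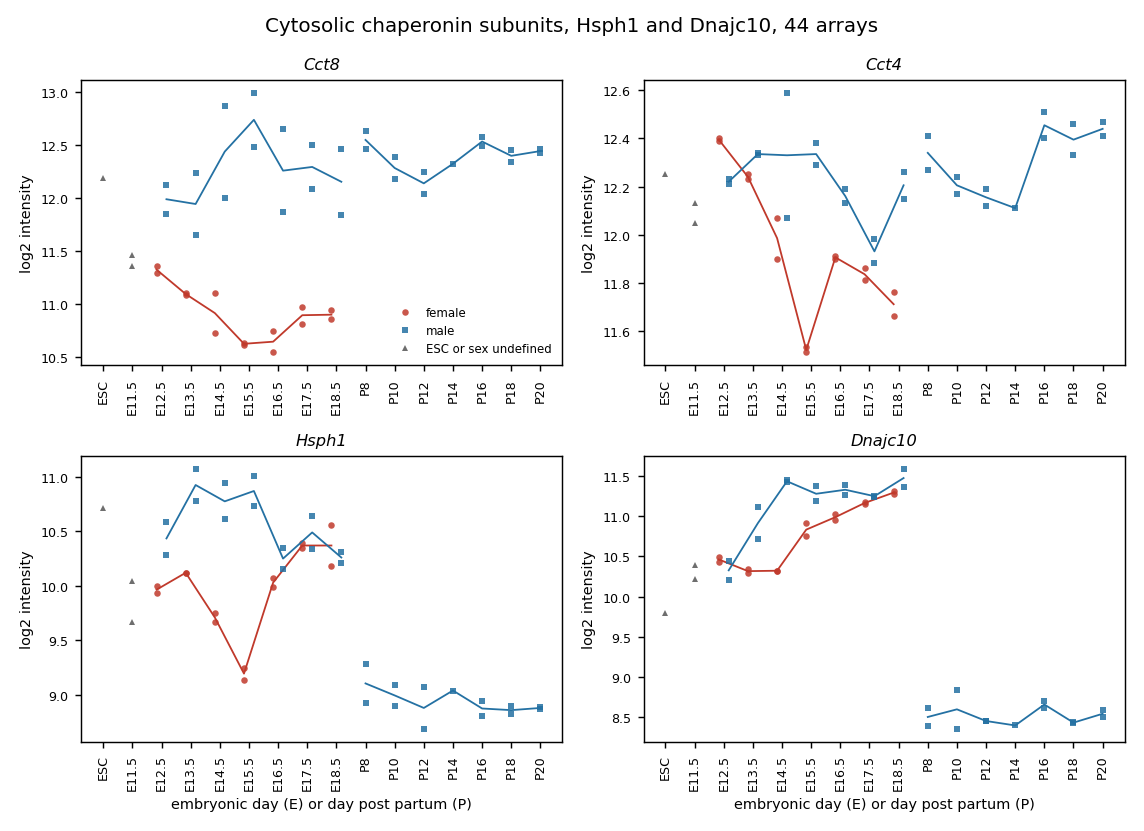
Log2 intensity (vertical axes) by stage (horizontal axis) of the CCT subunit genes Cct8 and Cct4, the HSP110 gene Hsph1 and the ER gene Dnajc10, a point per array with lines through group means. Cct8 is lower in females from E14.5 on, Cct4 stays between 11.51 and 12.59, and Hsph1, whose difference was 0.80 with median scaling, where the median of all genes was 1.10, and Dnajc10 are lower on all juvenile arrays than on the late fetal male arrays.

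From early to late fetal days the male family changed in more places than the female one, as did the array. In males 8 members rose and 13 fell between E12.5-E13.5 and E17.5-E18.5, where 36.7% of all genes were called (20.3% higher and 16.4% lower). With median scaling the split was 3 and 14. In females 5 rose and 1 fell, where 21.7% were called (10.1% higher and 11.6% lower). The female minus male difference of these changes was called positive for 14 members and negative for 6, where 43.1% of all genes were called (20.2% positive and 22.9% negative). In males Cct2, Cct5 and Cct7 fell by 1.49, 1.23 and 1.74 log2 units (adjusted p = 0.0011, 0.000456 and 1.93e-06). The Cct5 call ended without E18.5 male replicate 1 (-0.97), and all 3 ended without background correction. Partners of CCT were measured beside it. Of 7 tested genes of prefoldin, which hands actin and tubulin to CCT, and of related cofactors, 4 fell in males, and the list's median change was -1.2, beside -0.00677 over all genes. Pfdn4 fell by 2.40 ± 0.16 and Vbp1 by 1.69 ± 0.22, both prefoldin subunits, and Pdcl, a CCT cofactor, fell by 1.27 ± 0.25. In females the list's median change was 0.22, beside 0.0122 over all genes. Of the 7 genes 4 were higher in late females than in late males, where 20% of all genes were, led by Pfdn4 at 3.15 ± 0.16.

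What Hspa8, the constitutive cytosolic HSP70, showed depended on the probe. Its brighter probe ranged from 13.99 to 14.81 over all arrays and was called in none of the 10 comparisons, with a widest difference of 0.42 ± 0.15 in embryonic PGC against ESC. Quantile normalization gives every array the same set of values, and this probe's recur between arrays, such as 14.40 and 14.43. A probe this bright can therefore move little, and its narrow range is partly set by the normalization. A second Hspa8 probe, also detected on all 44 arrays, read 12.22, 11.89, 11.37 and 11.12 at P8 and P10, against 13.55, 13.57, 13.22 and 13.25 in late fetal males (-1.75, adjusted p = 9.31e-12), where the brighter one gave 0.26. It was lowest on both E16.5 female arrays (10.01), and at E14.5-E15.5 it was -0.82 in females against males (adjusted p = 4.05e-06). Hspa9, the mitochondrial HSP70, ranged from 12.14 to 13.17, was called in none of the 10 comparisons and differed most in juvenile against late fetal males (-0.50 ± 0.09). A second Hspa9 probe, also detected on all 44 arrays, gave -0.73 there (adjusted p = 8.9e-07). In late females against late males that probe gave -0.67 (adjusted p = 2.75e-06), where the brighter one gave -0.03. Both differences were under 2-fold. Dnajb1, the main J-protein partner of inducible HSP70, was called nowhere (10.57 to 11.99). Hsp90b1, the HSP90 of the endoplasmic reticulum, was called in none of the 10 comparisons (11.03 to 12.66), and day by day it was higher in females at E15.5 (1.06) and E16.5 (1.28). In all, 17 of the 62 members were called in none of the 10 comparisons, and the matching share of all genes was not counted. The 17 include dim genes (Dnajb8, Dnajc28 and Hspb7 detected on 2 arrays each, Dnajc5b on 3), so the count does not measure steady expression. Under median scaling, however, juvenile against late fetal males gave 1.90 for Dnajb1 and 1.16 for Hspa9, where the median of all genes was 1.10.

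HSP110 proteins are nucleotide exchange factors for HSP70. Hsph1 was lower in females at E14.5-E15.5, with 9.75, 9.67, 9.25 and 9.14 against 10.61, 10.94, 10.73 and 11.01 in males (-1.37 ± 0.13, adjusted p = 6.55e-10). Hspa4 was lower there too, with 6.4, 5.99, 6.91 and 5.84 in females against 7.91, 8.50, 7.66 and 8.68 in males (-1.90 ± 0.36, adjusted p = 4.94e-05). Neither pair of groups overlapped. At E17.5-E18.5 the differences were -0.01 ± 0.13 for Hsph1 and 0.07 ± 0.36 for Hspa4. Hspa4 had meanwhile fallen in males by 1.47 ± 0.36 (adjusted p = 0.000849).

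Of 11 listed testis members 9 were tested. In females against males, 1 was higher at E12.5-E13.5, 3 were higher and 1 lower at E14.5-E15.5, and 1 was lower at E17.5-E18.5, where 12.7%, 34.8% and 42.5% of all genes were called. Hspa2 was higher in females at E14.5-E15.5, the days of meiotic entry in the ovary, with 10.56, 10.61, 10.26 and 10.28 against 9.08, 8.88, 8.56 and 8.40 in males. The groups did not overlap, and the difference was 1.70 ± 0.13 (adjusted p = 2.39e-11). A second probe gave 1.54 (adjusted p = 4.71e-07). By E17.5 it read 8.39 and 8.23 in females and 7.90 and 8.20 in males. Cct6b, a testis form of the CCT zeta subunit, was higher in females at E14.5-E15.5 by 1.65 ± 0.29 (adjusted p = 1.75e-05). It was detected on 1 of those male arrays, and the difference was 0.71 without background correction. At E16.5 the female arrays read 7.72 and 5.95, both under the male ones at 7.76 and 8.07. Dnajc5g, a testis cysteine string protein, was higher in females at E12.5-E13.5 by 2.02 ± 0.34 (adjusted p = 3.47e-05), with 5.76, 6.48, 6.94 and 8.25 against 4.64, 4.48, 5.44 and 4.78 in males. The male values 4.64, 4.48 and 4.78 lay under the lowest detected signal of their arrays (5.82, 5.88 and 5.71). The Dnajc5g call ended without background correction. In females at E14.5-E15.5 Hspa4l, an HSP110 relative, was higher by at least 1.3-fold. That call ended without E14.5 female replicate 2 (0.94 log2 units).

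Dnajb13, which belongs to the radial spoke of sperm flagella, was the testis member called lower in late females. It read 5.15, 5.02, 5.42 and 4.74 in late females, on none of which it was detected, against 8.02, 7.13, 6.56 and 6.42 in late males, a difference of at least 2.35-fold (adjusted p = 2.25e-05). That call ended without background correction. Dnajb13 rose in males at least 2.5-fold over E12.5-E13.5 and was at background again on the P8 and P10 arrays, at least 3.42-fold under the late fetal males. Dnajb8 and Dnajc5b were detected on 2 and 3 arrays and were called nowhere. Testis paralogs of ER chaperones were measured beside them. Clgn, the testis calnexin, rose in fetal males by 4.53 ± 0.18 (adjusted p = 1.78e-16) and was at least 15.6-fold lower in late females than in late males (adjusted p = 5.91e-18), since no late female array detected it. Calr3, the testis calreticulin, was higher in females at E14.5-E15.5 by 3.07 ± 0.21 (adjusted p = 2.01e-12).

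Juvenile testis germ cells differed from late fetal ones in 27 members, of which 18 were higher and 9 lower at P8 and P10 than at E17.5 and E18.5, where 37.1% of all genes were called (18.4% higher and 18.6% lower). The bright postnatal arrays made this comparison sensitive to scale. With median scaling the difference over all genes had a median of 1.10 log2 units, and there were 38 members called higher and 2 lower. Set against that shift, all 27 called members kept their direction. Hspa1a, an inducible cytosolic HSP70, read 7.29, 7.30, 7.53 and 7.62 at P8 and P10, against 4.50, 5.12, 4.86 and 4.78 in late fetal males, of which 1 detected it (2.62 ± 0.22, adjusted p = 1.36e-10). Every postnatal array read 7.01 to 7.85, and every embryonic array 4.28 to 5.91. Hspa1l, its neighbour 546 bases away and known from spermatids, read 5.54, 5.63, 5.74 and 5.69, against 4.39, 4.48, 4.31 and 4.51 in late fetal males. It was not detected on those 4 fetal arrays, which makes it at least 1.58-fold higher (adjusted p = 2.5e-09), and 0.60 log2 units higher with an offset of 50. The head-to-head pair was low before birth and higher on all postnatal arrays apart from the P14 array of Hspa1l, which at 5.02 lay under 1 fetal array (5.12).

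Immediate early genes and markers of other cells were measured beside Hspa1a. Of 8 immediate early genes tested, 2 were lower and none higher at P8 and P10, with sums of 2560 to 3160 at P8 and P10 against 2310 to 4030 in late fetal males. Jun, Junb and Fosb were detected on none of those 4 juvenile arrays. Of 5 endothelial markers 4 were lower, with sums of 748 to 1020 at P8 and P10 against 2200 to 2780 in late fetal males. Sertoli markers, of which 2 of 9 were higher and 1 lower, summed to 1740 to 9100 against 2300 to 4400. Of 4 granulosa markers 3 were lower (164 to 779 against 495 to 1250). Their part in the juvenile differences was not tested. Other heat shock genes differed among themselves in this comparison. Hspa4 (2.15 ± 0.36) and the brighter Hspd1 probe (1.89 ± 0.15) were among the 18 members called higher, and Hspe1 differed by 0.71 ± 0.17, under 2-fold. Hsph1 was lower at P8 and P10, at 8.93, 9.28, 8.90 and 9.09 against 10.34, 10.64, 10.21 and 10.31 (-1.32 ± 0.13, adjusted p = 1.27e-09, but 0.80 with median scaling, under the median of all genes). Dnajb1 differed by -0.05 ± 0.09 (1.90 with median scaling, above the median of all genes), and Hspb1 was lower by -1.52 ± 0.39 (adjusted p = 0.00137, but 0.03 with median scaling).

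Hspa2 was higher at P8 and P10 than in late fetal males by 2.12 ± 0.13 (adjusted p = 4.01e-13), with 10.34, 10.17, 10.27 and 10.30 against 7.90, 8.20, 8.38 and 8.08, and its second probe gave 1.97. Dnajb3, a testis J-protein, was at least 2.65-fold higher and Hspa4l at least 2.2-fold higher, both not detected in late fetal males. Both differences were under 2-fold without background correction (0.63 and 0.60). Dnajc5g was higher by 1.08 ± 0.34 (adjusted p = 0.00725), a call that ended without E17.5 male replicate 1 (0.92) or E18.5 male replicate 1 (0.95). Dnajc8, a J-protein linked to splicing, was higher by 2.27 ± 0.28, and Hspa4 by 2.15 ± 0.36.

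During the first spermatogenic wave few members were called. Between P8-P10 and P18-P20, 2 members rose and 0 fell, where 1.56% of all genes were called (1.23% higher and 0.338% lower; limma; at an unadjusted p under 0.05, 10 were higher and 1 lower). Both that rose are testis members. Hspa2 read 10.97, 11.06, 11.98 and 11.87 at P18 and P20, against 10.34, 10.17, 10.27 and 10.30 at P8 and P10 (1.20 ± 0.13, adjusted p = 4.3e-07). Cct6b read 6.97, 7.12, 8.68 and 8.63, against 6.28, 5.64, 5.75 and 6 (1.93 ± 0.29, adjusted p = 5.03e-05). Neither pair of groups overlapped, and the P20 arrays were the highest of all 44 for both genes. Under median scaling Hspa2 differed by 0.89, where the median of all genes was -0.164. Dnajb3 and Dnajc5g were also highest at P20, at 7.15 and 7.32 and at 8.49 and 8.50, and were not called. Clgn rose alongside by 1.38 ± 0.18 (adjusted p = 1.08e-05). Of 4 spermatocyte markers 2 rose, with sums of 683 to 1030 at P18 and P20 against 502 to 584 at P8 and P10, and of 7 spermatid markers 1 rose (163 to 360 against 182 to 202). The share of such cells in the change was not tested.

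**Figure D5:**
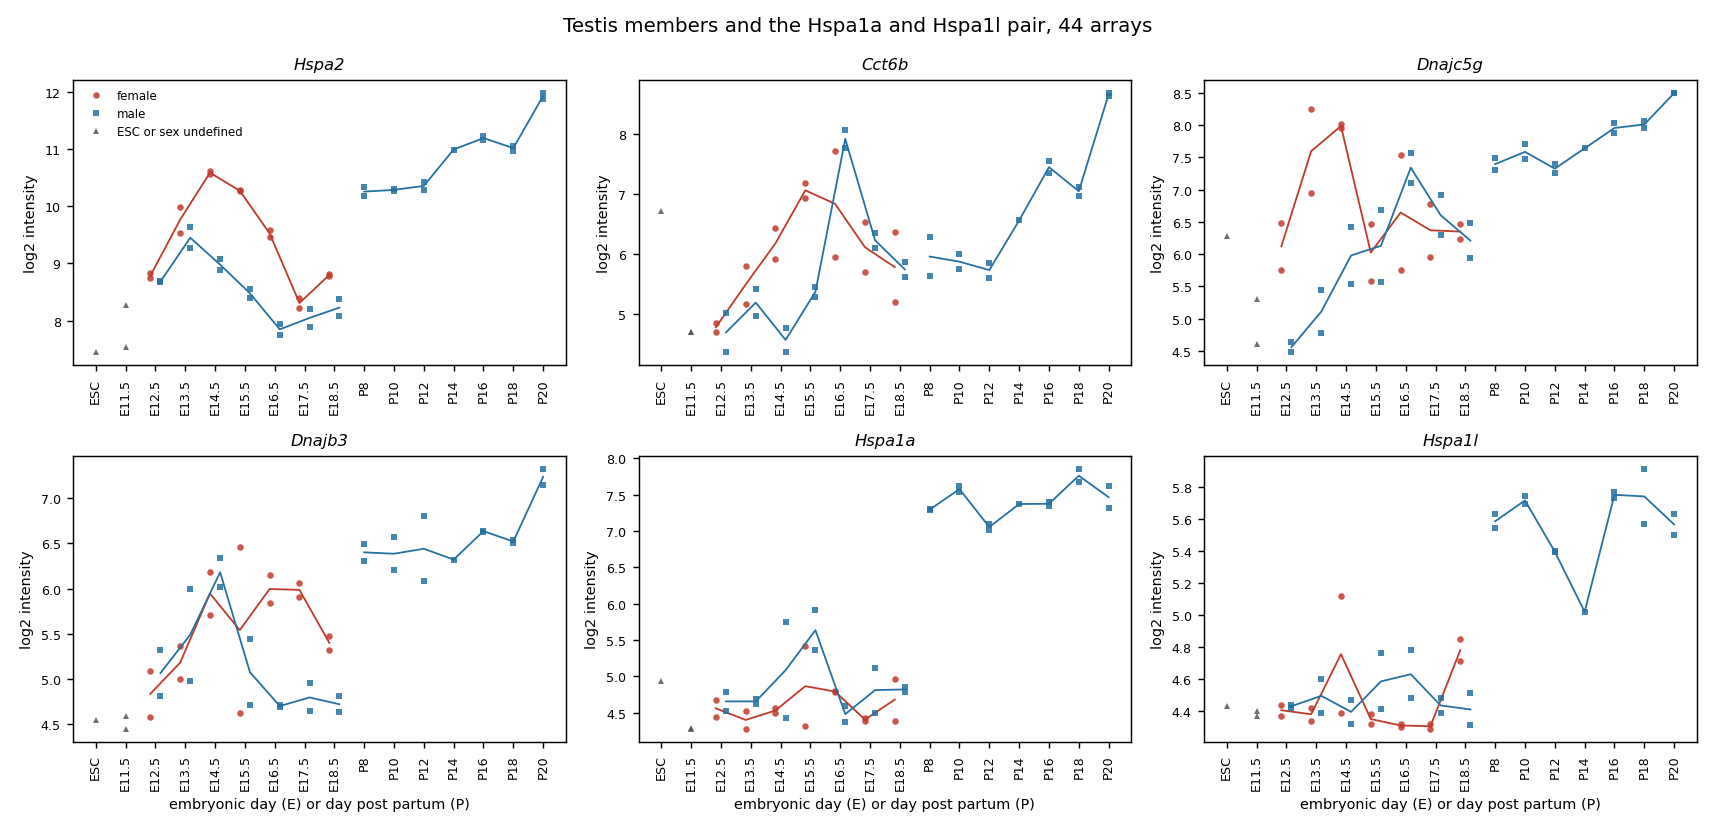
Log2 intensity (vertical axes) by stage (horizontal axis) of 5 testis members and of Hspa1a, a point per array with lines through group means. Hspa2 and Cct6b are highest at P20, and Hspa1a reads at least 7.01 on all postnatal arrays and at most 5.91 on all others.

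J-domain proteins made up most of the tested members (4 Dnaja, 9 Dnajb and 21 Dnajc genes). Dnajc6 (auxilin), which strips clathrin from vesicles with HSP70, read 4.53, 5.20, 6.47 and 6 in late females, against 8.86, 9.15, 10.46 and 10.29 in late males (-4.14 ± 0.19, adjusted p = 5.82e-16). It rose in males by 4.01 ± 0.19 over E12.5-E13.5 (adjusted p = 1.99e-15) and was lower at P8 and P10 than in late fetal males by -4.56 ± 0.19 (adjusted p = 2.81e-16). Its second probe gave -4.24, 4.06 and -4.17 in the same 3 comparisons. The E16.5 males read 9.12 and 8.92, and all PGC groups other than these late males read at most 7.94. The somatic marker sums given for Hspb1 moved in the same arrays. Dnajc12 was lower in females from E14.5 on, at least 2.99-fold at E14.5-E15.5 and at least 2.28-fold at E17.5-E18.5. The later call ended without background correction.

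Several mitochondrial J-proteins were higher in late females than in late males. Dnajc30 read 9.44, 9.38, 9.41 and 9.28 in late females, against 6.76, 6.15, 6.46 and 6.4 in late males (2.93 ± 0.14, adjusted p = 1.86e-15). It rose in females by 1.18 ± 0.14 and fell in males by 2.63 ± 0.14, and the sex difference was -0.50 at E14.5 and 2.51 at E15.5. Dnajc19, of the inner membrane import motor, read 12.27, 12.26, 12.11 and 12.16 in late females, against 10.28, 10.21, 9.81 and 9.90 in late males (2.15 ± 0.14, adjusted p = 3e-13). A second Dnajc19 probe, detected on 10 arrays, gave 0.24 (adjusted p = 0.435). Its paralog Dnajc15 was higher in females at E14.5-E15.5 alone among the windows (1.36 ± 0.11, adjusted p = 1.16e-10). Dnajc11, of the mitochondrial outer membrane, was at least 3.06-fold higher in late females. Its probe was detected on 5 arrays, and the call ended without background correction. Dnaja3, the mitochondrial DnaJ homologue, was higher by 1.65 ± 0.11 (adjusted p = 7.91e-13), and a second probe of it, detected on 16 arrays, gave 0.78 (adjusted p = 0.029), under 2-fold. Dnaja3 and Dnajc15 were named after their values were seen. Among 5 tested genes of mitochondrial protein quality control, Htra2 (2.35 ± 0.30) and Clpp (1.16 ± 0.12), both proteases, were higher in late females, as were 20% of all genes.

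All 4 Dnaja genes were called higher in late females than in late males, a count noticed after the values were seen, where 20% of all genes were higher. The differences were 1.06 for Dnaja1, 1.81 for Dnaja2, 1.65 for Dnaja3 and 1.14 for Dnaja4. Dnaja1 lost its call without E17.5 female replicate 1 (0.94) or E18.5 female replicate 1 (0.92), and the other Dnaja2 probes, detected on 2 and 3 arrays, gave -0.06 and 0.42. Without background correction the differences of Dnaja1, Dnaja2 and Dnaja4 were 0.45, 0.93 and 0.81. Dnaja4 rose in both sexes before birth, by 2.61 ± 0.18 in females (8.92, 8.70, 7.25 and 7.65 late against 5.40, 4.48, 5.86 and 6.32 early) and by 1.79 ± 0.18 in males (6.61, 6.81, 7.41 and 7.13 late against 4.41, 4.39, 5.71 and 6.30 early). The groups did not overlap in either sex. The E12.5 values lay under the lowest detected signal of their arrays (5.61 and 5.9 in females, 5.82 and 5.88 in males), which limits the size given for both rises. In males the call did not hold in every alternative run.

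J-proteins of the endoplasmic reticulum split by sex and age. Dnajc3, an inhibitor of the kinase PERK, read 8.88, 8.70, 8.68 and 8.22 in females at E14.5-E15.5, against 5.34, 4.84, 4.43 and 5.09 in males, on none of which it was detected (at least 9.45-fold, adjusted p = 1.08e-14). It was also higher at E17.5-E18.5 (1.96 ± 0.19, adjusted p = 1.28e-09), a call that ended without background correction. Dnajb9 (ERdj4) rose in females by 1.44 ± 0.15 (adjusted p = 1.41e-08) and was higher at P8 and P10 than in late fetal males by 1.87 ± 0.15. Dnajc10 (ERdj5), a disulfide reductase, was lower at P8 and P10, at 8.39, 8.62, 8.36 and 8.84 against 11.24, 11.25, 11.58 and 11.36 in late fetal males (-2.80 ± 0.11, adjusted p = 8.79e-17). Its second probe gave -1.83, and the difference was -0.84 with median scaling. The HSP70 of this compartment, Hspa5 (BiP), was higher in females at E14.5-E15.5 by 1.24 ± 0.29 (adjusted p = 0.000651) and 0.92 with an offset of 50. Of 10 other ER folding and stress genes, 4 were higher and 2 lower in late females than in late males, where 20% of all genes were higher and 22.5% lower. Herpud1 (-3.87 ± 0.24) and Ddit3 (-2.60 ± 0.20), both targets of the unfolded protein response, were the lower ones, and Pdia6, a disulfide isomerase, was at least 3.84-fold higher (adjusted p = 1.81e-07).

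Dnajb6, which keeps aggregation-prone proteins soluble, was lower at P8 and P10 by -1.89 ± 0.11, but its second probe gave 1.31 (adjusted p = 3.25e-06). Its direction is therefore not settled. In all, 14 members had several usable probes. Of 42 comparisons of a called probe with another probe of its gene, 33 had the same sign, and the rest were of Dnaja2, Dnajb4, Dnajb6, Dnajc19 and Hspd1.

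The regulators and partners of the family also moved. Of 4 tested heat shock factor genes and their binding proteins, Hsf3, a heat shock factor, was at least 2.3-fold lower in late females than in late males (adjusted p = 6.82e-15) and rose at least 2.45-fold in males. Hsbp1, which binds the trimer of heat shock factor 1, was higher in late females (2.14 ± 0.12, adjusted p = 2.79e-14). Among 16 HSP90 co-chaperones, 2 were higher and 7 lower in females at E14.5-E15.5, and 6 were higher and 2 lower at E17.5-E18.5, where 34.8% and 42.5% of all genes were called. Ahsa1, which speeds the ATPase of HSP90, was lower in both (-2.45 ± 0.13 and -1.13 ± 0.13). In males Cdc37, which brings kinases to HSP90, fell at least 3.22-fold over time, and Ptges3 (p23) fell by 1.92 ± 0.18. Among 13 HSP70 co-chaperones, Sil1, the exchange factor of BiP, read 8.91, 9.06, 9.31 and 9.15 in late females, against 5.17, 5.21, 5.77 and 5.46 in late males (3.71 ± 0.16, adjusted p = 1.99e-16). Bag3, which links HSP70 to small heat shock proteins, read 7.44, 7.39, 6.74 and 7.12 in late females, against 10.32, 10.54, 10.81 and 10.67 in late males (-3.41 ± 0.18, adjusted p = 1.26e-14). It fell in females by 3.03 ± 0.18 over time. Neither pair of groups overlapped.

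Against ESC, embryonic PGC had 6 members higher and 14 lower, where 33.7% of all genes were called (17.2% higher and 16.5% lower). The ESC group is 1 array, taken to vary like the others, and with median scaling the split was 2 and 36 (median of all genes -0.602). Hspb1 was lowest relative to ESC, with embryonic PGC arrays of 4.35 to 8.21 and 11.34 on the ESC array (-5.34 ± 0.56, adjusted p = 1.83e-08). Dnajc8 (-3.33 ± 0.41), Hspa4 (-3.19 ± 0.51), Cct5 (-2.87 ± 0.40), Hspb8 (-2.57 ± 0.28), Cct7 (-2.14 ± 0.37) and Hsp90aa1, the inducible cytosolic HSP90 (-2 ± 0.25), were lower too. Dnajb4 was at least 2.68-fold higher, but its second probe gave -0.38 (adjusted p = 0.197). Hspa2 was higher by 1.46 ± 0.19 (adjusted p = 4.97e-07), and its difference was 0 with median scaling, above the median of all genes by 0.60.

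Between E12.5 and E11.5, where 5.89% of all genes were called (3.33% higher and 2.56% lower), 2 members (Cct2 and Dnaja1) were higher and 1 (Dnajb2) lower at E12.5. All 5 erythroid markers tested were lower at E12.5, with sums of 237 to 3580 against 2810 to 66800 at E11.5. Of 5 endothelial markers 3 were lower (1080 to 1200 against 1700 to 2690), as were 2 of 6 mesenchymal ones (57.3 to 130 against 237 to 3720). Their part in the 3 calls was not tested. All 3 calls ended when E11.5 replicate 1 was left out (limma; 4 were higher and 5 lower at an unadjusted p under 0.05), whereas 7 were called without E11.5 replicate 2. None were called without E12.5 male replicate 2 either (9 higher and 6 lower unadjusted).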

How the data were processed

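The authors deposited a non-normalized intensity of 25697 probes per array with a detection p-value beside each, and a second table of log2 values. The submitters' processing notes name BeadStudio 3.2, RMA and lumi, and which of them made which table is not given in the sources used here. No genome build or aligner applies. Here the background was estimated from the detection p-values (nec, offset of 16) and removed, and the intensities were quantile-normalized and log2-transformed (limma 3.58.1, R 4.3.3). Probes detected on at least 2 arrays were kept, and the brightest per gene gave 10935 genes, named through the platform annotation and RefSeq. A model of 23 group means was fitted to all 44 arrays, and contrasts were adjusted by Benjamini-Hochberg (threshold 0.05, at least 2-fold). Folds against a group with no detection are bounds to the lowest detected signal. The test was checked on simulated data. The members, gene lists and comparisons were chosen with earlier results of these data known. Named are core and testis members, and per comparison the 6 largest non-overlapping rises and falls, with up to 3 genes per partner list. A gene beyond that rule is said to be so, apart from dim members named to account for the family. Beadchips carry no read depth, and the number of arrays limits the precision.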

Additional observations from a re-analysis of the deposited data

Results flagged for a closer look

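The change from E12.5-E13.5 to E17.5-E18.5 differed between females and males for 20 members by the test of the interaction (limma, adjusted p under 0.05 and at least 2-fold, where 43.1% of all genes did so). Values are the female minus the male change on the log2 scale. Among mitochondrial members, Dnajc30 stood at 3.80, Dnajc11 at 2.21, Hspd1 at 1.81, Dnajc19 at 1.54 and Dnaja3 at 1.53, while Hspe1 (-0.79), Hspa9 (-0.08) and Dnajc15 (0.09) were not called. Second probes gave 0.61 for Dnajc19 (adjusted p = 0.166) and 0.56 for Dnaja3 (adjusted p = 0.282). Other J-proteins were Dnaja2 at 1.83, Dnajc24, of diphthamide synthesis, at 1.40, Dnajc17 at 1.22, Dnajb3 at 1.21, Dnajc8 at 1.18 and Dnajc4 at 1.04. Hspa4 stood at 1.38, Cct7 at 1.21 and Hspa5 at 1.10. Negative values were found for Hspb1 at -3.46, Dnajc6 at -2.98, Dnajc5g at -2.07, Dnajb13 at -1.73, Dnajc12 at -1.52 and Dnajb2 at -1.13. Dnajc30 moved in opposite ways, by 1.18 in females and -2.63 in males, and so did Hspb1, by -1.28 in females and 2.18 in males. The calls kept under every alternative run were those of Dnaja3, Dnajc19, Dnajc24, Dnajc30, Dnajc6, Hspb1 and Hspd1. Single arrays left out ended the calls of Dnajb2, Dnajb3, Dnajc4, Dnajc17, Hspa4 and Hspa5. Groups of 2 arrays are too small for a test of single outlying arrays.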

How the results depend on the processing

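Counts of called members moved by over 1.5 times as follows. Without background correction they were 0 for E12.5 against E11.5 (limma; 11 higher and 7 lower at an unadjusted p under 0.05), 2 for late against early females, 8 for late against early males, 7 for the difference of these changes, 4, 14 and 11 for the sexes in the 3 windows and 16 for juvenile against late fetal males. With an offset of 50 they were 0 (11 and 7 unadjusted), 3 for late against early females and 13 for the difference of changes. Median scaling gave 38 against ESC, 1 for E12.5 against E11.5 and 1 for the first wave. The authors' log2 values gave 11 for late against early females. Array weights and the compared arrays alone each gave 0 for E12.5 against E11.5 (3 and 3, and 7 and 3, unadjusted). Quantile normalization after log2, chosen after seeing the data, gave 1 for E12.5 against E11.5, 3 for late against early females and 13 for the difference of changes. Median scaling also moved all genes, by a median of -0.602 against ESC and 1.10 in juvenile against late fetal males. Of the called and core members, those whose sign it turned against ESC included Dnajb1 (from 0.87 to -0.83) and Dnajc10 (to -0.48). It put Hspa2 at 0 and put Cct3, at 0 in the main values, at -1.85. In juvenile against late fetal males it turned the sign for Dnajb1 (1.90), Dnajb6 (0.21), Dnajc5 (0.67), Hsp90aa1 (1.23), Hspa9 (1.16), Hspb1 (0.03), Hspbp1 (0.45) and Hsph1 (0.80). Leaving out each array in turn gave 20 to 20 members against ESC, 0 to 7 for E12.5 against E11.5, 6 to 8 for late against early females, 19 to 22 for late against early males, 17 to 21 for the difference of changes, 7 to 9, 23 to 28 and 21 to 23 for the sexes, 26 to 29 for juvenile against late fetal males and 2 to 2 for the first wave. Duplicate numbers showed little sign of pairing the samples (correlations of -0.12 to 0.33 between groups, with medians of 0.02 to 0.11 per comparison). With the replicate number as a block the counts were 20, 3, 6, 21, 20, 8, 26, 22, 27 and 2, as without it. A block cannot change the differences between groups of 2 arrays, so equal counts say little about pairing. The cause of the shifts between settings was not tested. Signal over background limits what can be seen of Dnajb8, Dnajc28 and Hspb7, each detected on 2 arrays, and of Dnajc5b on 3. The same holds for Dnaja1 and Dnajc11, each detected on 5, Hspa12b on 6 and Hspb8 on 7.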
